A study of Triticum aestivum with 6 samples.

Results

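The genes described here are wheat root genes that were listed at or near 0 in control roots and at a measurable, mostly low level in roots beside live fungal inoculum. They were chosen by the deposited values themselves: under 0.1 FPKM in the control roots and at least 1 but under 100 FPKM in the signal-treated roots. FPKM is a fragment count scaled by transcript length and library size, so levels of different genes are compared here per length. The rule found 130 of the 2578 listed genes and assembled loci, 5.04% of the table. Because the rule used both group values, the levels and differences below are a description, with no test.

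The roots were those of bread wheat (Triticum aestivum), a hexaploid, of the cultivar Chinese Spring, from plants grown in sterilised soil and sand, 15 to a pot, under 2 treatments with 3 biological replicates each. In the molecular signals communication treatment (MSC), 15 bags of 0.25 µm membrane per pot held 25 g each of live inoculum of the arbuscular mycorrhizal fungus Rhizophagus irregularis, which kept spores and hyphae away from roots while dissolved molecules passed. In the non-mycorrhizal control (NM), 15 such bags held 20 g each of steam-sterilised inoculum with a filtrate of unsterilised inoculum added, so the groups differed in inoculum mass as well as in the living fungus. The table gives 1 value per treatment and none per replicate, and how deeply the 6 libraries were sequenced is not known.

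Arbuscular mycorrhizal fungi trade soil phosphate for plant carbon, and the partners exchange signals before they touch. Roots release strigolactones, which stimulate the fungus, and the fungus releases chitin-derived oligomers that root receptor kinases with LysM domains perceive. These receptors feed the common symbiosis pathway, in which nuclear calcium oscillations lead to the transcription of symbiosis genes that are otherwise little used in roots. No gene names stand in the table, and the reference annotation used here, IWGSC CS RefSeq v2.1 with 155467 genes, matched 0 of the 130 identifiers. Which of these genes belong to that pathway was therefore not analysed here, and no function is given to any of them.

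By the control values the genes were near-silent to differing degrees. In NM, 67 of the 130 genes (51.5%) were listed at 0.001 FPKM, which stands in for 0. The other 63 had a measurable NM value from 0.0133 to 0.0933 FPKM, with a median of 0.0533 FPKM. Only 4 of them lay under 0.02 FPKM, 22 lay from 0.02 to under 0.05 and 37 from 0.05 to under 0.1 FPKM. The genes at the stand-in thus stood apart from a low tail, and that tail ran on without a step past the limit of the rule. Among listed genes with 1 to 100 FPKM in MSC and the larger value there, 27 had an NM value from 0.1 to under 0.15 FPKM, 43 from 0.15 to under 0.2 FPKM and 68 from 0.2 to under 0.3 FPKM.

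**Figure D1:**
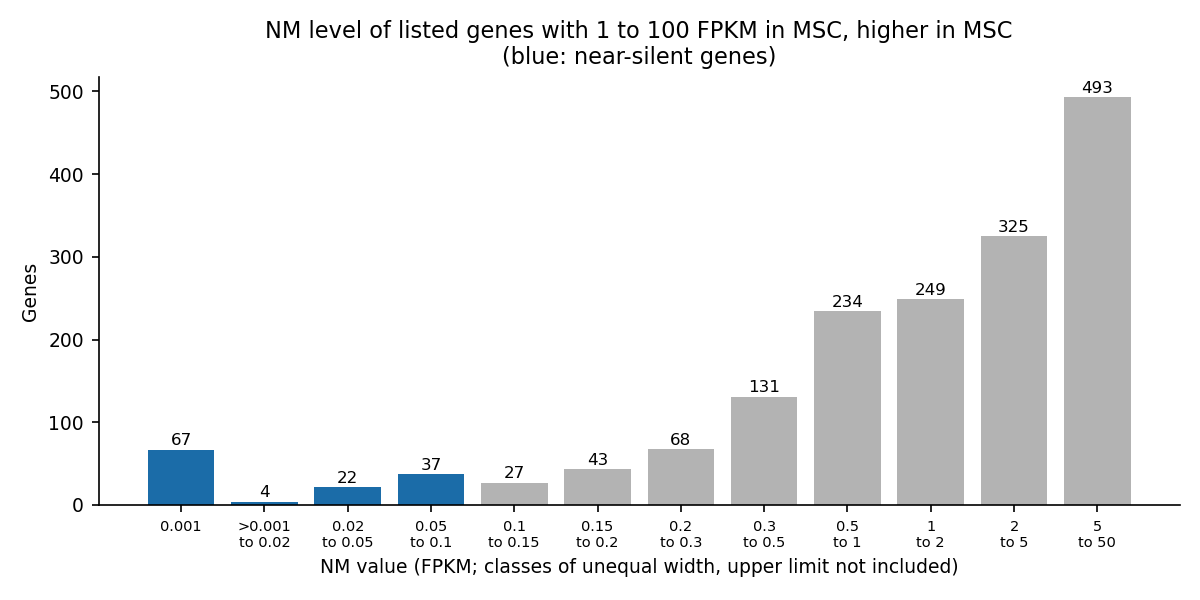
Number of genes (vertical axis) in classes of NM level in FPKM (horizontal axis, classes of unequal width) among the 1700 listed genes that were higher in MSC and had 1 to 100 FPKM there. Blue bars are the 130 near-silent genes: 67 at the stand-in value, then 4, 22 and 37, and the grey bars continue at 27 and 43 genes.

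The limits of the rule cut through this continuum. Just inside the NM limit stood 5 genes at 0.0933 FPKM, with 1.12 to 5.24 FPKM in MSC. Just outside it, a gene of 3AL was at 0.1 FPKM in the control and at 2.01 FPKM in MSC, and a gene of 1AL was at 0.103 and 1.01 FPKM. Just inside the MSC limit, genes of 1DS and 1BS stood at 1.00 and 1.01 FPKM, each listed at 0.001 FPKM in NM. Just under it, a gene of 5DL stood at 0.0533 FPKM in NM against 0.993 FPKM in MSC. No gene under 0.1 FPKM in NM reached 100 FPKM in MSC, a count of 0, so the upper limit left none out.

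Most of the near-silent genes reached a low level. The median MSC value was 1.91 FPKM, with quartiles of 1.26 and 3.75 FPKM and a highest value of 44.9 FPKM. Between 1 and 2 FPKM lay 70 of the 130 (53.8%), while 24 reached 5 FPKM, 6 reached 10 FPKM and 2 reached 20 FPKM. The other 1570 listed genes that were higher in MSC with 1 to 100 FPKM there, all with at least 0.1 FPKM in NM, had a median of 2.16 FPKM in NM against one of 7.43 FPKM in MSC. Of these, 41.7% reached 10 FPKM, against 4.62% of the near-silent genes. Every listed gene differs by at least 2-fold, so a gene with 10 FPKM in MSC can be listed with an NM value of 5 FPKM. The summed MSC level of the 130 genes was 444 FPKM, 1.22% of the 36433 FPKM summed over all listed genes higher in MSC. The 2 highest near-silent genes alone made up 17.1% of those 444 FPKM.

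**Figure D2:**
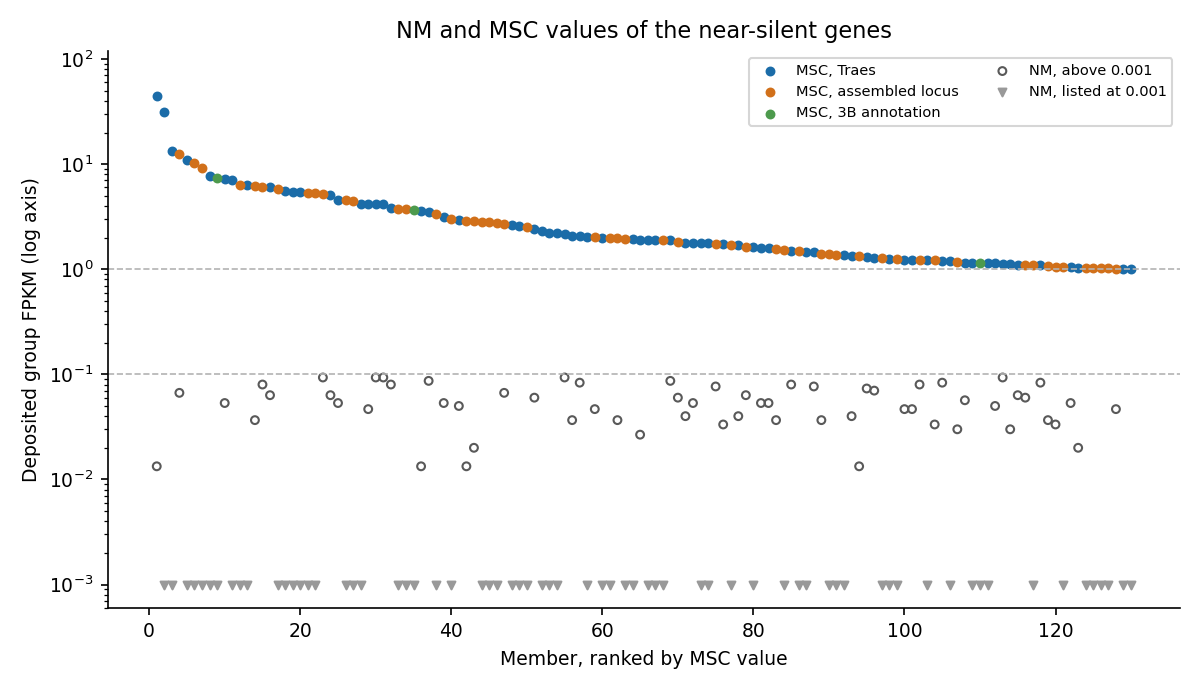
Deposited group FPKM (log axis) of the 130 near-silent genes, ranked by MSC value. Filled points are MSC values by kind of identifier, open circles are NM values above 0.001 and grey triangles are NM values listed at 0.001, with dashed lines at 0.1 and 1 FPKM; 2 genes stand above 20 FPKM and 70 lie between 1 and 2 FPKM.

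The gene with the highest MSC level was Traes_2AS_E08BF60FE, a gene of 2AS, the short arm of chromosome 2A by its identifier. Its NM value was 0.0133 FPKM and its MSC value 44.9 FPKM, a ratio of 3370-fold that rests on a very small NM value. If that value is a mean of 3 numbers rounded to 2 decimals, rounding alone lets it lie between 0.00833 and 0.0183 FPKM, and the ratio between 2451-fold and 5391-fold. The next ratio among the 63 genes with a measurable NM value was 268-fold. By MSC level this gene ranked 229th of all 2578 listed items, and on the log2(FPKM + 1) scale its difference of 5.50 was the largest of the table.

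Of the other 5 genes of at least 10 FPKM, 4 were listed at 0.001 FPKM in NM, so no fold is given for them. A gene of 2BS had 31.2 FPKM in MSC. One on the short arm of 3D had 13.4 FPKM and one on the long arm of 7A had 10.9 FPKM. The remaining pair were assembled loci, transcripts put together from the reads with no chromosome in their identifier. The first stood at 0.0667 FPKM in NM against 12.5 FPKM in MSC, and the second at 0.001 FPKM against 10.3 FPKM. Of the 24 genes that reached 5 FPKM, 16 (66.7%) were listed at the stand-in in NM, against 51.5% of all 130.

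Each of these values has no replicate spread. If a group value is the mean of 3 libraries, 44.9 FPKM can come from 3 similar libraries or from 1 library at 135 FPKM with the others at 0, and the table cannot tell these apart. An MSC value of 1 FPKM can likewise come from 1 library at 3 FPKM. In whole roots, a different number of cells of a type and a different amount of RNA per cell cannot be told apart either.

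MSC levels of genes at the stand-in overlapped those of genes with a measurable NM value, with somewhat higher quartiles at the stand-in. The 67 at the stand-in had a median of 2.02 FPKM in MSC, with quartiles of 1.36 and 4.50 FPKM. The 63 with a measurable NM value had a median of 1.75 FPKM, with quartiles of 1.23 and 3.06 FPKM, so the quartile ranges of the sets overlapped. Of the 67, 16 reached 5 FPKM in MSC, and of the 63, 8 did. This difference was not tested. For the 63, the ratio of MSC to NM ran from 12.0-fold to 3370-fold with a median of 39.2-fold, where the rule itself requires more than 10-fold. Of them 52 reached 20-fold, 21 reached 50-fold and 8 reached 100-fold. On the log2(FPKM + 1) scale the median difference of all 130 was 1.52, with quartiles of 1.15 and 2.23. Over all 2056 listed genes higher in MSC, 79.8% of the table, that median was 1.12. Over the other 1570 with 1 to 100 FPKM in MSC it was 1.17. The limits of the rule set a lowest possible difference for the 130, so these medians are not a test. The pseudocount of 1 FPKM keeps the differences of these low genes small. By this measure, 25 of the 100 largest increases of the table were near-silent genes, which are 130 of the 2056 listed genes higher in MSC. The measure uses the same 2 values as the rule, so a high rank follows in part from the rule.

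A larger set of near-silent genes stayed below 1 FPKM in both groups. In all, 336 genes were under 0.1 FPKM in NM and higher in MSC, and the 130 are 38.7% of them. The other 206 had a median of 0.460 FPKM in MSC, and 62 of them (30.1%) were at the stand-in in NM. Among these 206 were 22 genes with a measurable NM value under 0.02 FPKM, down to 0.00333 FPKM, a range in which only 4 of the 130 lay.

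The opposite pattern was found in fewer genes, by a margin that depended on the scaling. As deposited, 22 listed genes, 0.853% of the table, had 1 to 100 FPKM in NM and under 0.1 FPKM in MSC. Their NM median was 1.83 FPKM and their highest NM value 11.6 FPKM. Of these, 19 (86.4%) were at the stand-in in MSC, against 51.5% of the 130 at the stand-in in NM. Set against their own direction, they were 5.21% of the 422 lower genes with 1 to 100 FPKM in NM, while the 130 were 7.65% of the 1700 higher genes with 1 to 100 FPKM in MSC. The difference between these shares was not tested. With MSC values divided to give both groups equal upper quartiles, 56 genes met the rule and 31 the opposite one. Those quartiles were of the listed genes only, 79.8% of which were higher in MSC. What the divisor of 2.06 reflects was not tested, and it does not measure library depth.

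Identifiers divide the 130 into 73 genes of the wheat survey annotation (Traes), 3 of a separate annotation of chromosome 3B and 54 assembled loci. Assembled loci were 41.5% of the near-silent genes and 16.5% of the 1700 higher genes with 1 to 100 FPKM in MSC. Of the 281 assembled loci in that range 19.2% were near-silent (95% Wilson interval 15.0% to 24.2%), against 5.49% of the 1330 Traes genes (4.39% to 6.85%). These intervals cover counting of genes only, not the spread between root samples. Assembled loci in that range had lower levels, with a median of 3.84 FPKM in MSC against 7.53 FPKM for Traes genes. A large share of assembled loci was not particular to the 130. It was 63.6% (14) among the 22 genes of the opposite pattern. Among the 206 near-silent genes below 1 FPKM in MSC it was 35.4% (73).

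Within classes of MSC level the share of assembled loci that were near-silent was again the larger in each. From 1 to 2 FPKM, 30 of 72 assembled loci (41.7%) and 40 of 208 annotated genes (19.2%) were near-silent. From 2 to 5 FPKM these were 14 of 91 (15.4%) and 22 of 348 (6.32%), and from 5 to 10 FPKM 8 of 53 (15.1%) and 10 of 267 (3.75%). At 10 to 100 FPKM only 2 of 65 assembled loci and 4 of 596 annotated genes were. Among the near-silent genes themselves the kinds reached like levels, with medians of 1.92 FPKM for assembled loci and 1.90 FPKM for Traes genes. The stand-in was the NM value of 32 of the 54 assembled loci, 32 of the 73 Traes genes and all 3 genes of the 3B annotation, which had 1.14, 3.63 and 7.40 FPKM in MSC.

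**Figure D3:**
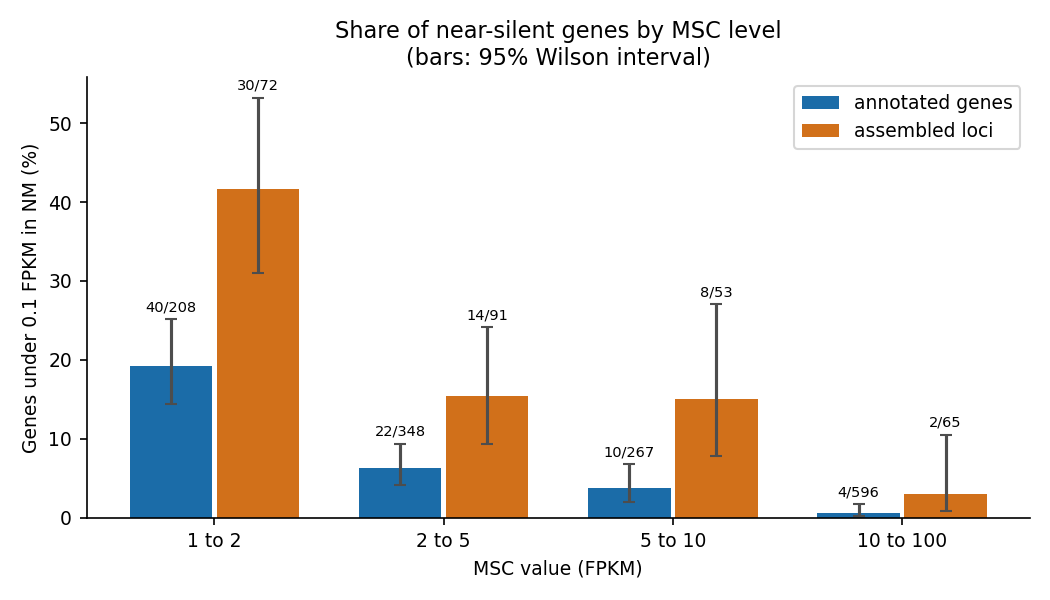
Percentage of listed genes higher in MSC that were under 0.1 FPKM in NM (vertical axis), by MSC level in FPKM (horizontal axis), for annotated genes and assembled loci, with counts above the bars and 95% Wilson intervals as error bars. For assembled loci the share is 41.7% at the lowest level and 3.08% at the highest, and for annotated genes 19.2% and 0.671%.

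Numbers of assembled loci that lie close together were looked up for all of them. Of the 54 near-silent loci, 14 (25.9%) had another listed locus within 10 numbers, against 18.7% of the 321 other assembled loci higher in MSC. Together these 14 had 16 such neighbours, and 14 of the 16 (87.5%) were higher in MSC, near the 84.4% among the 64 neighbours of the other higher loci. The 14 neighbours that were not near-silent themselves had 0.1 to 7.37 FPKM in NM. One near-silent locus, at 0.001 FPKM in NM and 1.04 FPKM in MSC, stood next in number to a locus of 7.37 and 16.6 FPKM. Another, at 0.0333 and 1.05 FPKM, stood next to a locus of 1.28 and 7.10 FPKM. In 2 cases the neighbour was lower in MSC, as where a locus at 0.0367 and 1.39 FPKM stood beside one of 2.93 and 0.850 FPKM. A single pair of near-silent loci stood within 10 numbers of each other, both at 0.001 FPKM in NM, with 1.09 and 1.99 FPKM in MSC. How close these loci are on a chromosome was not analysed here.

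A chromosome could be read from the identifiers of 76 of the 130 genes. Wheat carries subgenomes A, B and D, and chromosomes of the same number in each are homoeologous. Subgenome B held 35 of the 76 (46.1%), A 22 (28.9%) and D 19 (25.0%). Among placed higher genes with 1 to 100 FPKM in MSC the shares were 36.2%, 30.9% and 33.0%. As a rate, 6.82% of such genes in B were near-silent (95% Wilson interval 4.95% to 9.34%), 5.02% in A (3.34% to 7.49%) and 4.06% in D (2.61% to 6.25%), and these intervals overlap. Levels reached were alike, with median MSC values of 1.83 FPKM in A, 1.92 FPKM in B and 2.00 FPKM in D.

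Near-silent genes were spread over 20 of the 21 chromosomes. Over all placed higher genes with 1 to 100 FPKM in MSC, 76 of 1419 (5.36%) were near-silent. Chromosome 7D held 0 of them among 81 such genes, which allows a rate of up to 4.53% by the Wilson interval. It was picked as the lowest of the 21, so this limit is not a test. Homoeologous group 2 held the most, 20 (26.3% of those placed), close to its 24.2% of the placed genes in that range. Group 1 held 15 (19.7%, against 12.5%) and group 7 held 4 (5.26%, against 11.8%). In group 2 the genes lay on 2A, 2B and 2D in numbers of 7, 7 and 6. Apart from the leading genes of 2A and 2B, at 44.9 and 31.2 FPKM, those 20 reached 1.12 to 5.45 FPKM in MSC.

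**Figure D4:**
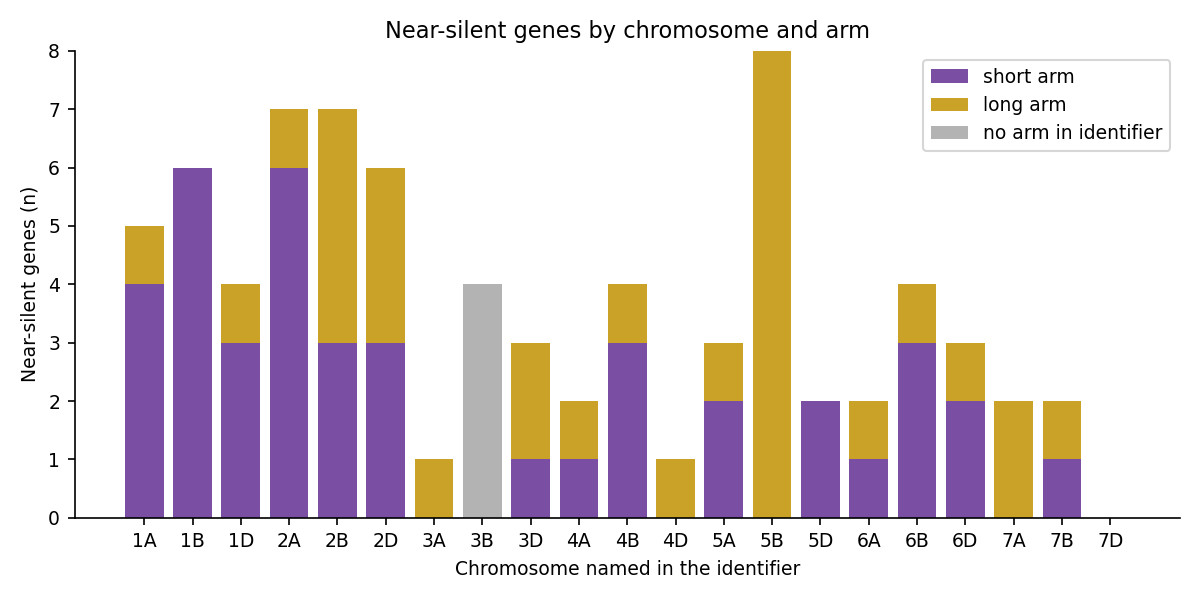
Number of near-silent genes (vertical axis) on each of the 21 chromosomes named in identifiers (horizontal axis), coloured by short arm, long arm or no arm named. Chromosome 5B has the most, 8, all on its long arm, chromosome 1B has 6, all on its short arm, and 7D has 0.

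Near-silent genes made up a larger share of the listed genes on short arms of chromosomes than on long arms. Of the 72 genes with an arm in their identifier, 41 (56.9%) lay on short arms, although short arms held 36.2% of the higher genes with 1 to 100 FPKM in MSC that name an arm. As a rate, 41 of 476 such genes on short arms were near-silent, 8.61% (95% Wilson interval 6.41% to 11.5%), and 31 of 840 on long arms, 3.69% (2.61% to 5.19%). The MSC level of these wider sets was close, with medians of 7.34 FPKM on short arms and 7.65 FPKM on long arms. The share was the larger on short arms in each of the 4 classes of MSC level. It was 23 of 83 against 15 of 108 genes from 1 to 2 FPKM and 10 of 116 against 11 of 208 from 2 to 5 FPKM. From 5 to 10 FPKM it was 5 of 81 against 4 of 170, and from 10 to 100 FPKM only 3 of 196 against 1 of 354. The share on short arms was also the larger in all 3 subgenomes, with 7.61% against 3.15% in A, 10.9% against 5.70% in B and 7.59% against 2.48% in D. Within each subgenome the 95% Wilson intervals of the arms overlap. Level classes and subgenomes divide the same 72 genes, so they are not separate support for the difference. Which arms held more near-silent genes in number turned with the limits: short arms held 60 of 126 (47.6%) with at least 0.5 FPKM in MSC, 88 of 184 (47.8%) with no lower limit and 15 of 31 (48.4%) with the groups scaled to equal upper quartiles. The rate on short arms was the larger in each of these, with 11.6% against 7.26%, 16.0% against 10.2% and 3.95% against 2.25%. The difference between arms was noticed in these values and was not tested, and genes that neighbour or copy one another are not independent.

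Homoeologous groups did not all share this pattern. The share was the larger on short arms in 5 of the 7 groups and the larger on long arms in groups 3 and 7. Group 3 had only 1 of 33 on short arms and 3 of 49 on long arms. Of these 3, 2 lie on 3D and have identical values, and genes of 3B name no arm. Group 1 had 13 of 98 on short arms (13.3%) and 2 of 79 on long arms (2.53%). Its short-arm genes reached 1.00 to 7.30 FPKM in MSC with a median of 1.80 FPKM; 1A held 4, 1B 6 and 1D 3. Rows that stand out of identifier order in the table include 3 of these 13, and without such rows 10 of 94 (10.6%) were near-silent. Group 7 had 1 of 57 on short arms and 3 of 111 on long arms.

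**Figure D5:**
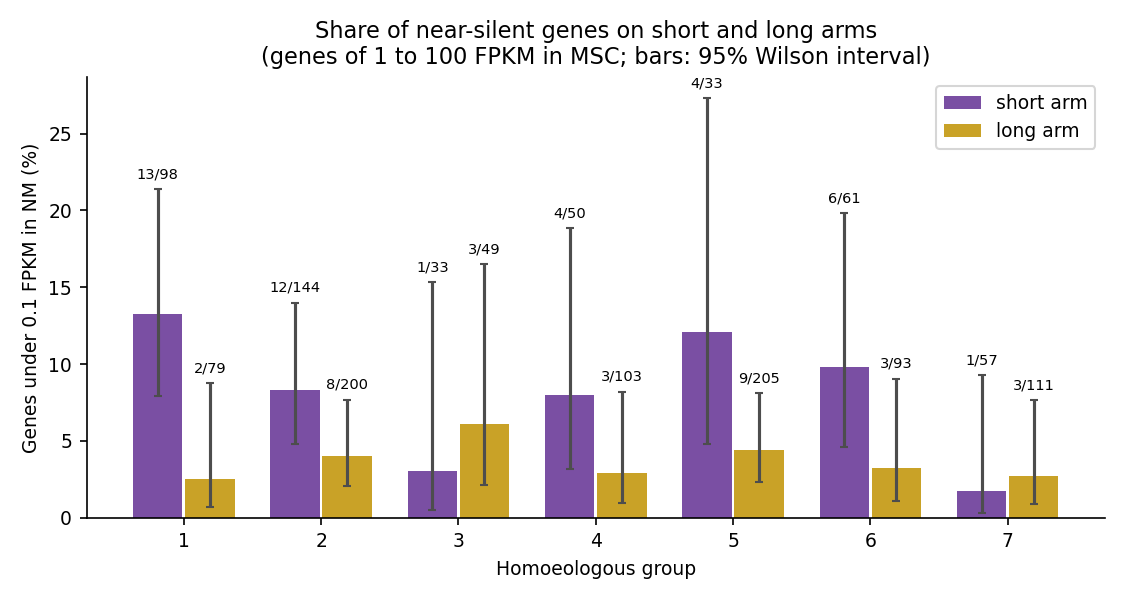
Percentage of listed genes with 1 to 100 FPKM in MSC and the larger value there that were under 0.1 FPKM in NM (vertical axis), on short and long arms of each homoeologous group (horizontal axis), with counts above the bars and 95% Wilson intervals as error bars. Group 1 shows 13 of 98 against 2 of 79, while groups 3 and 7 show the larger share on long arms.

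The long arms of group 5 held unequal numbers of near-silent genes, a difference that was not tested. The long arm of 5B held 8 of 95 higher genes with 1 to 100 FPKM in MSC as near-silent, that of 5D held 0 of 78 and that of 5A held 1 of 32. The 95% Wilson intervals of these rates overlap, with 4.33% to 15.7%, 0% to 4.69% and 0.554% to 15.7%. The rate on the long arm of 5B was 8.42%, against 5.36% over all placed genes in that range, which lies within its interval. The 8 genes of 5B reached 7.69, 5.09, 4.17, 3.57, 2.63, 1.31, 1.25 and 1.12 FPKM in MSC, and 3 of them were at the stand-in in NM. All 4 near-silent genes of 6B were at the stand-in in NM and reached 1.77 to 6.28 FPKM in MSC. Members were found in A, B and D alike on 6 homoeologous arms, among them the short arms of groups 1, 2 and 6. Which of these genes are A, B and D copies of each other was not analysed here.

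Identical pairs of values joined 6 of the 130 genes into 3 sets of 2, which is 4.62% of them against 3.49% of the whole table. The set with the highest level holds Traes_3DL_94539BFE9, on the long arm of 3D, and an identifier with the same 9-character code and a further digit. Both stood at 0.0933 FPKM in NM against 4.16 FPKM in MSC, a ratio of 44.6-fold. A like pair with a shared code on the short arm of 1B stood at 0.0467 FPKM in NM against 1.23 FPKM in MSC. From the table, reads of one identifier of such a pair cannot be separated from those of the other. The third set, a gene of 2AS and a gene of 4BS with different codes, shares the stand-in in NM and 1.90 FPKM in MSC, so that only its MSC value is a measured match. Counting each set as 1 leaves 127 genes.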

How the data were processed

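Polyadenylated RNA of about 100 mg of root per replicate was sequenced, per the labels' protocols. The authors deposited 1 table with 1 FPKM value per treatment (MSC is headed MF). RSEM (version 1.3.0), TopHat2 and Cufflinks appear in the submitters' processing notes, with no role stated. The build, annotation and row selection were not given in the sources used here. Excepting 0.001, all 4999 FPKM values are multiples of 1/300 (tolerance 0.01 of a step), as means of 3 values with 2 decimals would be, so 0.001 was read as a stand-in for 0. No counts or depths can be recovered, and the planned limma fit was not run. Members, lists and tests were chosen with earlier results of these data known.

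Chromosome and arm were read from identifiers. Identifiers printed are the highest gene and the first of the largest identical-value set; genes of at least 10 FPKM, such sets and genes nearest the limits are described without identifiers. The remarks on arms, numbers of loci, 5BL and 6B were chosen after their values were seen. Shares have 95% Wilson intervals. The parser was tested on simulated data. Tools were matplotlib 3.10.9, SciPy 1.17.1, pandas 2.3.3 and NumPy 2.4.6 under Python 3.11.15. Of the 2578 rows, 21 stand out of identifier order, 3 of them near-silent genes. Whether their values moved with the identifiers cannot be told from the table.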

Additional observations from a re-analysis of the deposited data

How the results depend on the processing

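The number of near-silent genes followed the limits, as counts under other limits must: 24 with at least 5 FPKM in MSC, 60 with at least 2 FPKM, 224 with at least 0.5 FPKM, 336 with no lower limit, 200 with NM under 0.2 FPKM and 67 at the stand-in only. With MSC values divided by 2.06, which makes the upper quartiles of both columns equal over the listed genes only, 56 genes met the limits. It stayed within 1.5 times in the other 3 alternatives (93 to 127). With these MSC limits of 5, 2, 0.5 and 0 FPKM the median MSC value was 6.29, 4.16, 1.13 and 0.680 FPKM, and the median log2(FPKM + 1) difference 2.86, 2.25, 1.03 and 0.69. That difference was 4.04 with a pseudocount of 0.1 FPKM and 0.47 with 5 FPKM. The share at the stand-in was 66.7% with at least 5 FPKM in MSC, 41.5% with 0.5 FPKM, 38.4% with no limit, 72.0% with NM under 0.05 FPKM and 33.5% with 0.2 FPKM. Subgenome D held 14.3% of the 14 placed genes of at least 5 FPKM. The set with 1 to 100 FPKM in NM and under 0.1 FPKM in MSC numbered 31 with equal upper quartiles, against 22. The shares in A (21.2% to 35.7%), in B (45.0% to 52.1%), in group 2 (18.2% to 34.3%), of assembled loci (35.5% to 48.4%) and on short arms (47.6% to 61.5%, under 50% in 3 alternatives; chosen, like the scaled count of 31, after seeing the data) stayed within the 95% interval of the reported value in all 10 alternatives. The alternatives share genes with the reported set, so their shares are not independent of the reported values. No paired analysis was possible because replicate values are not in the table used here, and fits without 1 replicate were not run for the same reason. Depth is unknown, so values near 0 have no stated precision.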
